A study of Mus musculus with 8 samples.

Results

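The genes described here are 36 interferon-stimulated and antigen presentation genes of the mouse heart, taken from a list of names and sorted by the role of their products, by a rule that uses no measured value. They were 6 sensors and transcription factors, 19 antiviral effectors and genes of the ISG15 system, 6 genes of MHC class I and peptide loading, and 5 genes of MHC class II. All 36 were found among the 55573 genes counted, and all 36 were among the 17411 that passed the filter on low counts. RNA was sequenced from the hearts of male C57BLKS/J mice aged 24 weeks, in 4 libraries of genotype db/m and 4 of genotype db/db, with 3 µg of total RNA as input for each. Mice of genotype db/db are homozygous for a mutation of the leptin receptor and become obese and diabetic, and the db/m mouse, which carries 1 mutant copy, is its lean control. The labels name no treatment in either group and leave unsaid whether the libraries of a group are different animals, so the spread that the p-values rest on may be partly technical. Any 2 libraries of a genotype differed by more than counting noise, with a chi-square per degree of freedom of 13.1 to 202 over genes.

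Interferons bind receptors at the cell surface, and the receptors' JAK kinases phosphorylate STAT proteins. Complexes that hold STAT2 and IRF9 bind the interferon-stimulated response element (ISRE) before antiviral genes, while the gamma-activated site (GAS) serves mainly the response to type II interferon, which induces IRF1, guanylate-binding proteins and antigen presentation genes. MHC class I is made by almost every cell and displays peptides that the TAP transporter brings into the endoplasmic reticulum. Class II is made mainly by macrophages, dendritic cells and B cells under the control of CIITA.

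Sequence before the start sites is shown first, searched for the letters of the ISRE, the GAS and the Y box. RefSeq promoters on GRCm38.p6 were matched to 27 of the 36 members by symbol, and the 250 bases before each start were searched on both strands. The ISRE core, searched as GAAANNGAAA, was found for 11 of the 27 members (40.7%) and for 936 of all 27025 genes with a promoter (3.46%). Among the antiviral effectors it was found for 9 of 14 (64.3%), among class I genes for 1 of 5, which was B2m, and among class II genes for 0 of 2. The GAS, searched as TTCNNNGAA, was found for 4 members (14.8%) and for 8.13% of all genes. The Y box, searched as CCAAT, was found for all 5 class I and both class II members with a promoter, against 37.5% of all genes. The ISRE cores of 3 antiviral effectors, 1 guanylate-binding protein, 1 transcription factor and 1 class I gene are printed 5′ to 3′ on the gene's strand, with the motif in capitals. Capitals that begin with TTTC are the same core read on the opposite strand, and in Isg15 the 3 copies overlap.
Isg15, chr4:156200850-156200921, minus strand: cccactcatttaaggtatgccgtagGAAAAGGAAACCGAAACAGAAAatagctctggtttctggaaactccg
Ifit1, chr19:34640760-34640838, plus strand: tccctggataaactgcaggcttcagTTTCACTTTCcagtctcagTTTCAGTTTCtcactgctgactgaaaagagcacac
Rsad2, chr12:26456538-26456597, minus strand: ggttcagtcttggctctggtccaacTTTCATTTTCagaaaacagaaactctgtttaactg
Gbp7, chr3:142530258-142530317, plus strand: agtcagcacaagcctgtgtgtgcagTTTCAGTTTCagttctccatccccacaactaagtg
Stat2, chr10:128270251-128270310, plus strand: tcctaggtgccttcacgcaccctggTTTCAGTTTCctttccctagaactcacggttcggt
B2m, chr2:122147523-122147582, plus strand: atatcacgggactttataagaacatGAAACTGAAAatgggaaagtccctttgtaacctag

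The GAS of Irf1 and the Y boxes of 1 class I and 2 class II genes follow in the same form, chosen because Irf1 and H2-K1 are among the 3 members higher in db/db at an unadjusted p under 0.05. ATTGG is the Y box read on the opposite strand. A match is a description of the letters, not a binding site or a cause.
Irf1, chr11:53769899-53769957, plus strand: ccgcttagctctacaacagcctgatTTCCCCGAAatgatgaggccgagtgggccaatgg
H2-K1, chr17:34000348-34000388, minus strand: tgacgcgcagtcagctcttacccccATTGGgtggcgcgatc
H2-Aa, chr17:34287842-34287896, minus strand: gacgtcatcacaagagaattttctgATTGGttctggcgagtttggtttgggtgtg
H2-Eb1, chr17:34305783-34305861, plus strand: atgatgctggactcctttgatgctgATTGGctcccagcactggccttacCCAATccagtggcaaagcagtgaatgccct

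Library totals ranged from 19541757 to 22249911 counts. Levels are given in CPM, counts scaled to a common library size with TMM factors, and differences as log2 fold changes of db/db over db/m. Markers of heart muscle were high in every library, with 6 of 6 present and a summed level of 26630 to 31328 CPM in db/m and 26554 to 33152 in db/db. The sum rests mostly on the most abundant markers. As a mean log2 deviation from each gene's mean over the 8 libraries, the 6 markers stood at -0.91 in db/m 3, against -0.08 to 0.26 in the other libraries. Libraries db/m 1 and db/m 3 stood apart: 5 atrial muscle markers summed to 873 and 3479 CPM there, against 0.43 to 18.002 in the other 6, and 5 adipocyte markers to 258 and 843 CPM, against 24.4 to 37.1. In db/m 3 long genes also read high and short genes low, with median log2 deviations of 0.48 in the longest 1 in 10 of genes and -0.61 in the shortest. Results are therefore also given without both libraries, which leaves only db/m 2 and db/m 4 against the 4 db/db libraries. Of those controls, db/m 4 was the highest of all 8 libraries for 14 of the 36 members (38.9%, against 6.82% of all genes). How far a change in that setting comes from having fewer controls was not tested.

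Class I genes had higher mean levels in db/db hearts and the antiviral gene Oas2 a lower one, but no member passed the test between genotypes. At an adjusted p under 0.05 (edgeR's quasi-likelihood test with Benjamini-Hochberg adjustment over all tested genes) 0 members passed, and the smallest adjusted p was 0.238, for Oas2. Of all tested genes 1 passed, which is 0.00574%. DESeq2 called 377 genes (2.17%) and limma-voom with sample weights 130 (0.747%), and in each the only member called was Oas2. At an unadjusted p under 0.05, 3 members were higher in db/db, Irf1, H2-K1 and Tap1 (8.33%, against 5.12% of all genes), and 5 were lower, Ifih1, Ddx58, Oas2, Ifi27 and Ifi44 (13.9%, against 7.84%). The groups did not overlap for 0 members with db/db higher (5.04% of all genes) and for 2 with db/db lower (4.61% of all genes), Ifih1 and Oas2. Log2 fold changes were positive for 20 members and negative for 16, with a median of 0.09, where the median of all tested genes was -0.02. Without db/m 1 and db/m 3 the median was -0.11, 14 members were positive and 22 negative, and at an unadjusted p under 0.05 there were 0 members higher (5.63% of all genes) and 2 lower (5.04%), Oas2 and Ifi44. The balance of these counts turned with single libraries: 7 members were higher and 1 lower without db/db 4, and 6 higher and 3 lower without db/m 4. The shares of all genes with 1 library left out were not computed, so whether these counts exceed them was not tested.

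**Figure D1:**
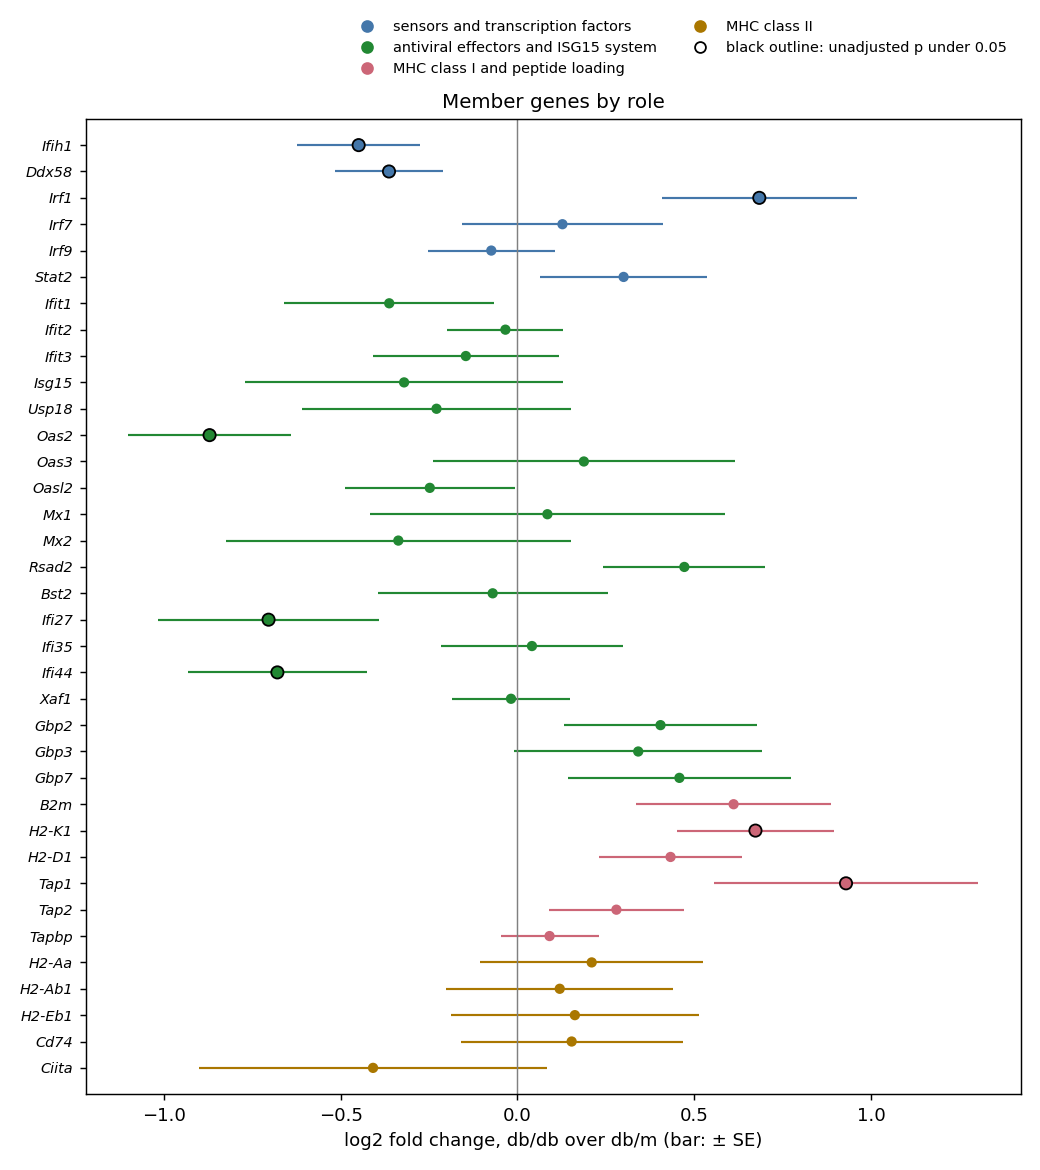
Log2 fold change of each of the 36 members, db/db over db/m, with its SE as a bar and colours for the 4 roles. Black outlines mark the 8 members with an unadjusted p under 0.05. All 6 class I genes lie above 0, while the antiviral effectors lie on both sides, from -0.87 for Oas2 to 0.47 for Rsad2.

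By role, class I genes had a median log2 fold change of 0.52 with 6 of 6 positive, and class II genes 0.15 with 4 of 5 positive. Sensors and transcription factors had a median of 0.03 with 3 of 6 positive, and antiviral effectors -0.07 with 7 of 19 positive. Without db/m 1 and db/m 3 these medians were 0.28, -0.10, -0.13 and -0.24. Class I then still had 6 of 6 positive, and class II 0 of 5. With 1 library left out at a time the medians ran from 0.35 to 0.74 for class I, -0.0023 to 0.41 for class II, -0.08 to 0.22 for sensors and transcription factors and -0.20 to 0.13 for antiviral effectors. Without db/m 4 they were 0.74, 0.28, 0.22 and 0.13, so the antiviral median turned positive, as it did without db/db 4, at 0.05. Without db/db 1 the class II median was -0.0023.

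Among the sensors, Ifih1 and Ddx58 encode the cytoplasmic receptors MDA5 and RIG-I, which detect viral double-stranded RNA. Ifih1 stood at 20.4, 20.7, 31.4 and 22.1 CPM in db/m 1 to 4, and at 18.5, 19.2, 17.1 and 14.5 in db/db 1 to 4. Every db/db library was below every db/m library, although the gap between the nearest was 19.2 against 20.4, and db/m 3 was well above the rest. The log2 fold change was -0.45 (SE 0.17), with an edgeR p of 0.027 and an adjusted p of 0.342, and it was -0.31 without db/m 1 and db/m 3. Ddx58 stood at 29.5, 24.2, 36.2 and 35.4 CPM in db/m and at 22.8, 26.3, 25.8 and 22.5 in db/db. Here db/m 2 lay among the db/db libraries, and the log2 fold change was -0.36 (SE 0.15, adjusted p 0.366 by edgeR). Ifih1 and Ddx58 have 8165 and 7050 exon bases, and long genes read high in db/m 3. With each library's trend on exon length removed, Ifih1 stood at -0.30 (edgeR p 0.053) and Ddx58 at -0.25 (edgeR p 0.091). Without db/m 3 both stood at -0.28, with edgeR p-values of 0.053 and 0.061.

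Irf1, a transcription factor induced by type II interferon, went the other way. It measured 20.8, 25.2, 13.3 and 32.6 CPM in db/m and 37.3, 50.5, 33.4 and 26.2 in db/db. Libraries db/db 1 to 3 exceeded all db/m libraries, while db/db 4 lay below db/m 4. The log2 fold change was 0.68 (SE 0.28), with an edgeR p of 0.032 and an adjusted p of 0.352, and it was 0.35 without db/m 1 and db/m 3. Stat2, a subunit of the factor that binds the ISRE, measured 20.8, 22.3, 22.5 and 31.1 CPM in db/m and 40.4, 34.8, 25.2 and 18.7 in db/db, so that the db/db group held both the highest and the lowest library. Irf7, which drives type I interferon genes, and Irf9, the DNA-binding subunit of the same factor as Stat2, had log2 fold changes of 0.13 (SE 0.28) and -0.07 (SE 0.18).

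Oas2, an oligoadenylate synthetase of the pathway that activates RNase L, had the smallest p of the members. Its level was 19.2, 19.5, 14.4 and 27.4 CPM in db/m and 8.94, 13.4, 12.99 and 8.64 in db/db. The groups did not overlap, the highest db/db level being 13.4 and the lowest db/m level 14.4. The log2 fold change was -0.87 (SE 0.23), with an edgeR p of 0.0035 and an adjusted p of 0.238. Its adjusted p was 0.036 by DESeq2, 0.0277 by limma-voom and 0.0497 by edgeR without db/m 3, and it was 0.0599 by edgeR without db/m 1 and db/m 3, where the log2 fold change was -1.10. Over all alternatives the adjusted p ran from 0.0277 to 0.479. The family members Oas3 and Oasl2 had log2 fold changes of 0.19 (SE 0.43) and -0.25 (SE 0.24), and the difference between family members was not tested.

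Ifi44, an interferon-induced cytoplasmic protein, and Ifi27, an interferon-induced mitochondrial and nuclear membrane protein, also had lower means in db/db. Ifi44 measured 10.4, 6.97, 5.46 and 11.2 CPM in db/m and 5.82, 6.05, 4.88 and 4.48 in db/db, with overlap only through db/m 3. Its log2 fold change was -0.68 (SE 0.25, adjusted p 0.332 by edgeR), and -0.78 without db/m 1 and db/m 3. Ifi27 measured 33.5, 16.3, 45.6 and 20.7 CPM in db/m and 16.8, 22.9, 19.2 and 12.4 in db/db. The 2 high libraries of Ifi27 were db/m 1 and db/m 3, those with the atrial and adipocyte markers, and its log2 fold change of -0.70 (SE 0.31) became -0.06 without them. Whether those tissues contributed the Ifi27 counts was not tested.

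**Figure D2:**
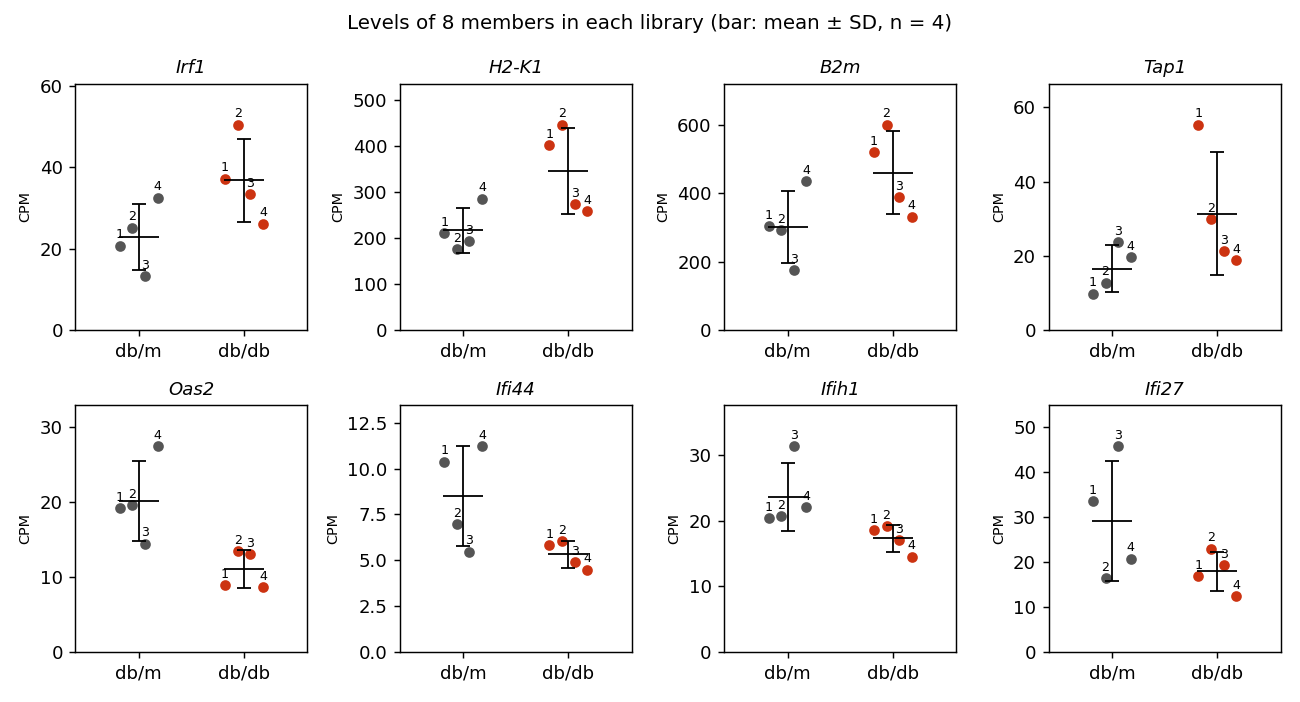
Levels in CPM of 8 members, by genotype: Irf1, H2-K1, B2m, Tap1, Oas2, Ifi44, Ifih1 and Ifi27. They are not the same 8 as those with an unadjusted p under 0.05, since B2m (edgeR p 0.052) is shown and Ddx58 is not. Each dot is 1 library, labelled with its replicate number, and bars are the mean ± SD of 4 libraries. Oas2 and Ifih1 show no overlap between genotypes, and the 2 high dots of Ifi27 are db/m 1 and db/m 3.

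Rsad2, whose product viperin blocks viral replication, had the largest positive log2 fold change of the antiviral effectors, 0.47 (SE 0.23, adjusted p 0.412 by edgeR). Its levels of 19.4, 24.0, 31.2 and 41.4 CPM in db/m overlapped those of 47.1, 43.8, 38.6 and 31.6 in db/db. The guanylate-binding proteins Gbp2, Gbp3 and Gbp7, large GTPases that attack the vacuoles of intracellular microbes, divided the db/db group. Gbp7 measured 29.5, 25.9, 38.8 and 38.4 CPM in db/m and 74.9, 51.9, 30.4 and 25.03 in db/db, so db/db 1 and 2 lay above all db/m libraries and db/db 3 and 4 lay among or below them. Gbp2 and Gbp3 had the same order, at 59.6 and 64.6 CPM in db/db 1 and at 26.5 and 21.3 in db/db 4. The log2 fold changes were 0.40 (SE 0.27) for Gbp2, 0.34 (SE 0.35) for Gbp3 and 0.46 (SE 0.32) for Gbp7, and without db/db 1 they were 0.20, 0.04 and 0.11.

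The other 12 antiviral members had log2 fold changes from -0.36 to 0.19, none with an edgeR p under 0.05. The translation inhibitors Ifit1, Ifit2 and Ifit3 stood at -0.36 (SE 0.30), -0.03 (SE 0.16) and -0.15 (SE 0.26). Isg15, a ubiquitin-like modifier, and Usp18, the protease that removes it, stood at -0.32 (SE 0.45) and -0.23 (SE 0.38), with the highest library of both being db/m 4, at 7.50 and 5.32 CPM. Mx1 and Mx2, GTPases that trap viral nucleocapsids, were scarce, at 0.21 to 1.18 and 0.87 to 4.46 CPM. Bst2, the tetherin that holds virions at the cell surface, Ifi35 and Xaf1 stood at -0.07 (SE 0.32), 0.04 (SE 0.26) and -0.02 (SE 0.17). Ifit3 shared 97.4% of its longest transcript with Ifit3b at an identity of at least 95%. Isg15 and Mx2 shared 63.8% and 34.8% of theirs with another annotated gene, which for Mx2 was the member Mx1. The counts of Ifit3, Isg15, Mx2 and Mx1 are therefore uncertain. Tapbp shared 21.8% with Gm19412, a gene with 0 counts that lies over Tapbp's own exons on the opposite strand.

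For class I, H2-K1 and H2-D1 encode the heavy chains and B2m the light chain. H2-K1 measured 211, 175, 193 and 285 CPM in db/m and 402, 446, 273 and 257 in db/db. All db/db libraries exceeded db/m 1 to 3, and db/m 4 lay above db/db 3 and 4. The log2 fold change was 0.67 (SE 0.22), with an edgeR p of 0.013 and an adjusted p of 0.298. It was 0.53 to 0.85 with 1 library left out at a time, each with an unadjusted edgeR p under 0.05, and 0.58 without db/m 1 and db/m 3, where that p was 0.108. B2m measured 303, 293, 174 and 435 CPM in db/m and 520, 601, 389 and 332 in db/db, with the db/m group lowest in db/m 3, and had a log2 fold change of 0.61 (SE 0.28, adjusted p 0.386 by edgeR), and of 0.33 without db/m 1 and db/m 3. H2-D1 measured 486, 425, 298 and 619 CPM in db/m and 618, 646, 597 and 607 in db/db. The db/db libraries of H2-D1 lay close together, at 617 ± 21.2 CPM against 457 ± 133 in db/m (SD, n = 4), and only db/db 2 exceeded db/m 4. Its log2 fold change was 0.43 (SE 0.20, adjusted p 0.396 by edgeR), 0.28 without db/m 3 and 0.23 without db/m 1 and db/m 3.

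Tap1, a subunit of the peptide transporter, had the largest log2 fold change of the members, 0.93 (SE 0.37, adjusted p 0.352 by edgeR). It measured 9.76, 12.8, 23.6 and 19.7 CPM in db/m and 55.4, 29.9, 21.3 and 18.9 in db/db. As for the guanylate-binding proteins, only db/db 1 and 2 lay above all db/m libraries, and without db/db 1 the log2 fold change was 0.51. Tap2, the partner subunit, and Tapbp, the tapasin that bridges the transporter to class I, had log2 fold changes of 0.28 (SE 0.19) and 0.09 (SE 0.14). Tap1 shared 212 exon bases with Psmb9 on the opposite strand, 3.87% of its exons. In all, 12 members shared exon bases with another gene, and counts over those bases are uncertain. On the same strand this holds under any strand setting, and on the opposite strand because the counting is not stated to use strand. Same-strand partners were Rnf31 for Irf9 (2.28% of its exons, 3914 counts against 4714) and Zbtb22 for Tapbp (4.11%, 5556 against 20969). Gbp7 and Cd74 shared 11.35% and 0.715% with same-strand genes that had 0 and 6 counts. The partner held more counts than the member for Irf7, which shared 1.19% of its exons with Phrf1, and for Ciita, which shared 3.45% with Dexi. The largest antisense overlaps by share were 24.9% of Tapbp, with Gm19412, which had 0 counts, 20.02% of Irf1, with a gene that had 114 counts against 4977, and 16.8% of Ifi35, with a gene that had 8.

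C57BLKS/J mice carry the H2-d haplotype, as background, while the mm10 reference is C57BL/6J, of haplotype H2-b. Counts of the polymorphic genes H2-K1, H2-D1, H2-Aa, H2-Ab1 and H2-Eb1 therefore rest on reads aligned to another haplotype, in both genotypes alike, and how many reads were lost or moved to a neighbouring gene was not tested. Per kb of exon, the class I chains had the highest levels of the 36 members. B2m stood at 350.4 CPM per kb in db/m and 535 in db/db, H2-D1 at 177 and 239, H2-K1 at 73.5 and 117, and Cd74 of class II next at 63.3 and 70.4. The lowest were Oas3, at 0.177 and 0.200 CPM per kb, and Mx1, at 0.213 and 0.224.

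The class II genes took both their highest and their lowest levels within db/db, apart from Ciita, whose highest level was in db/m 3. Cd74, the invariant chain that guides class II molecules, measured 87.5, 120.0, 85.6 and 132 CPM in db/m and 155, 122, 147 and 49.4 in db/db. H2-Aa, a class II alpha chain, measured 37.6, 54.4, 41.3 and 57.6 CPM in db/m and 74.9, 55.7, 67.5 and 22.7 in db/db. For both, db/db 4 was the lowest of the 8 libraries and db/db 1 the highest. The beta chains H2-Ab1 and H2-Eb1 were also lowest in db/db 4, at 15.5 and 17.9 CPM, and highest in db/db 1, at 57.4 and 64.1. Log2 fold changes of these 4 genes were 0.12 to 0.21 with SEs of 0.31 to 0.35, and without db/db 4 they were 0.39 to 0.47. Ciita, the class II transactivator, had 3.65, 4.32, 10.6 and 5.89 CPM in db/m and 8.83, 3.75, 4.33 and 1.55 in db/db, with a log2 fold change of -0.41 (SE 0.49).

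Macrophage markers were also lowest in db/db 4. The 12 markers, all tested, summed to 1030, 951, 731 and 825 CPM in db/m 1 to 4 and to 620, 1100, 1290 and 433 in db/db 1 to 4. The 5 class II genes summed to 194, 273, 205 and 288 CPM in db/m and to 360, 268, 329 and 107 in db/db. In db/db 4 both sums were the lowest of the 8 libraries, but in db/db 1 the class II sum was the highest and the macrophage sum the next lowest. Of the 12 markers 9 had negative log2 fold changes, with a median of -0.38, and -0.13 without db/m 1 and db/m 3. No macrophage marker was at 0 in any library, and Csf1r, the receptor that macrophages need for survival, had 25.03 CPM in db/db 4 against 54.0 to 107 elsewhere. Dendritic cell markers summed to 53.4 to 67.8 CPM in db/m and 53.4 to 67.9 in db/db, and B cell markers to 3.76 to 5.45 and 1.45 to 3.31. Endothelial markers, which mark another class of cells that can carry class I and class II, summed to 1657 to 2056 CPM in db/m and 1370 to 1901 in db/db. At an unadjusted p under 0.05, 3 of 6 were lower (50%, against 7.84% of all genes), and 2 were lower without overlap (4.61% of all genes). Without db/m 1 and db/m 3, 1 of 6 was lower at that p (5.04% of all genes). Neutrophil markers summed to 12.9, 16.1, 1.41 and 4.84 CPM in db/m 1 to 4 and to 5.55, 16.3, 70.5 and 10.3 in db/db 1 to 4. Library db/db 3 thus stood far above the rest. The 3 tested had log2 fold changes of 1.41 to 1.90, with 0 at an unadjusted edgeR p under 0.05 and a smallest adjusted p of 0.420. The part of these cells in the class I and class II results was not tested, and in bulk tissue fewer cells of a type and less RNA per cell cannot be told apart.

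**Figure D3:**
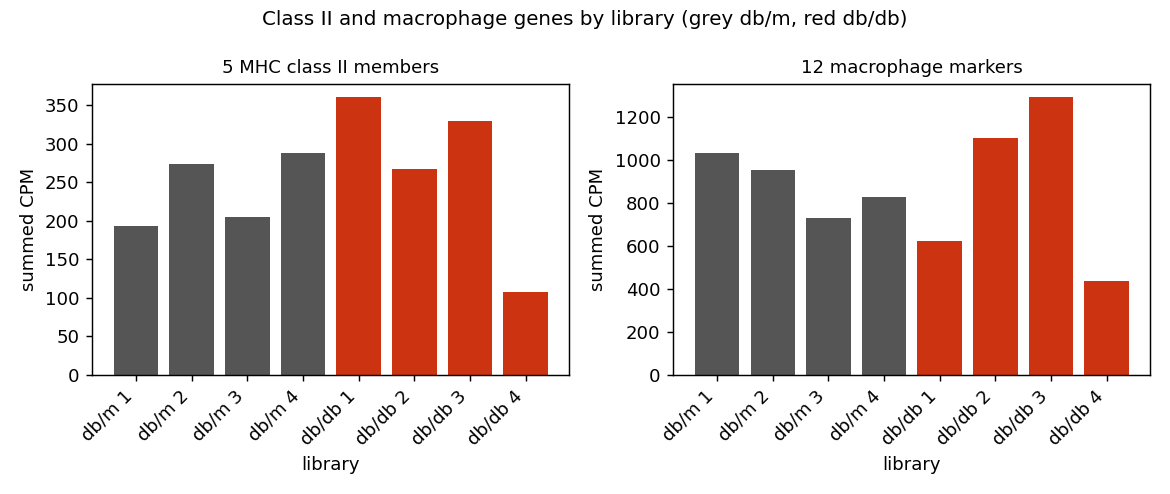
Summed CPM of the 5 class II members (left) and of 12 macrophage markers (right) in each of the 8 libraries, with axes starting at 0. Library db/db 4 is lowest in both panels, at 107 and 433 CPM, while db/db 1 is highest for class II at 360 and low for macrophage markers at 620.

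Single libraries set the extremes across roles. Library db/db 4 had the lowest level of all 8 for 20 of the 36 members (55.6%), against 10.3% of all tested genes, and these were 5 of 5 class II genes, 11 of 19 antiviral effectors, 4 of 6 sensors and transcription factors and 0 of 6 class I genes. Library db/m 4 had the highest level for 14 members (38.9%, against 6.82% of all genes), 12 of them antiviral effectors, and db/db 1 for 12 (33.3%, against 9.34%). All class I genes were highest in db/db 1 (2 genes) or db/db 2 (4 genes). Without db/db 4 the log2 fold changes of Irf9, Ifit2, Ifit3, Bst2 and Xaf1, from -0.15 to -0.02 with all libraries, were 0.04 to 0.11.

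**Figure D4:**
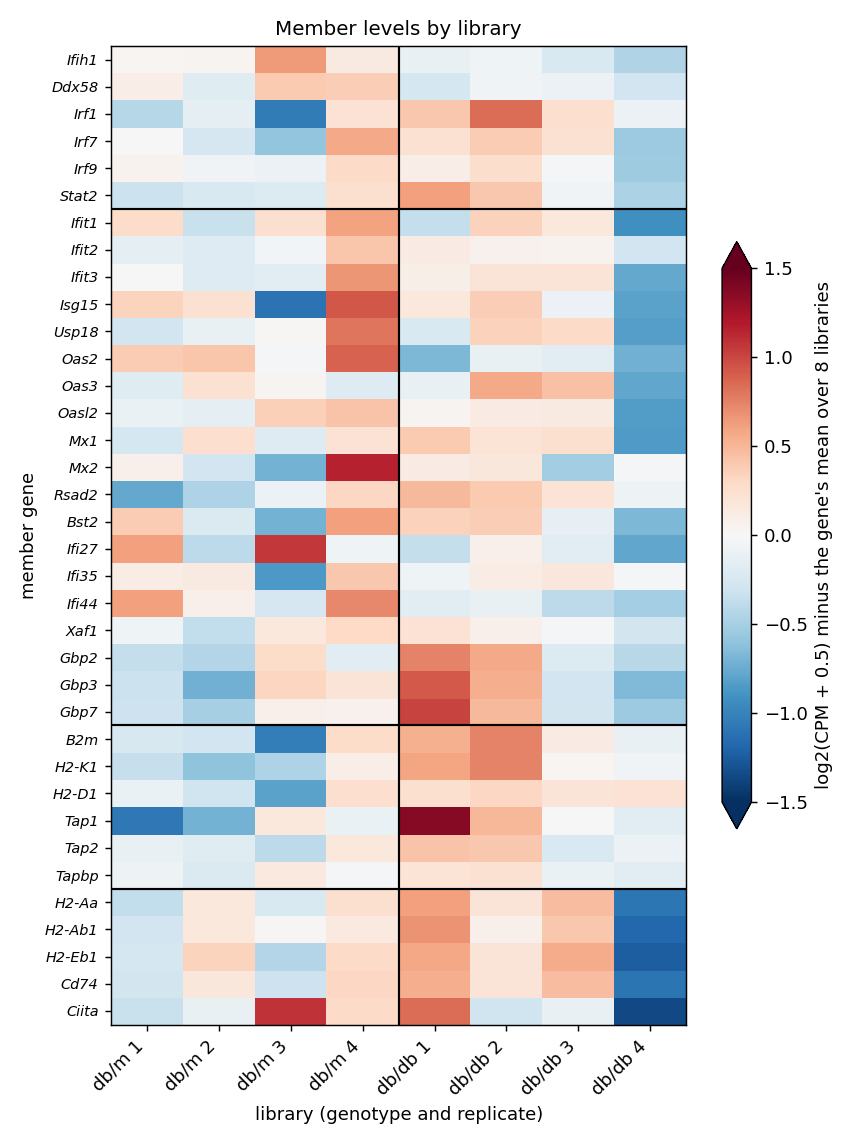
Level of each of the 36 members in each library, as log2(CPM + 0.5) minus the gene's mean over 8 libraries, with colours limited to -1.5 and 1.5. Black lines separate the 4 roles and the 2 genotypes. The db/db 4 column is low for class II and most antiviral genes, db/m 4 is high for antiviral genes, and db/db 1 and 2 are high for class I genes and the guanylate-binding proteins.

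The rest of the pathway was followed in 5 further lists, in which 0 genes had an adjusted p under 0.05 by edgeR, DESeq2 or limma-voom. Of the interferon genes themselves, Ifna4, Ifnk, Ifne, Ifnl2 and Ifnl3 had 0 counts in all 8 libraries, where 0 allows up to 3 counts, or 0.124 to 0.162 CPM. Ifnb1 had 2 counts in 1 library and Ifng 0 to 4. Of 19 tested receptors, JAK-STAT components and regulators, 0 were higher (5.12% of all genes) and 1 was lower (5.26%, against 7.84%) at an unadjusted p under 0.05, with a median of -0.01. The lower gene was the kinase Jak1, at -0.36 (SE 0.13). Without db/m 1 and db/m 3 these counts were again 0 and 1, where 5.63% of all genes were higher and 5.04% lower. Of 18 nucleic acid sensing genes 0 were higher (5.12% of all genes) and 1 was lower (5.56%, against 7.84%), with a median of -0.12. The lower gene was the adaptor Traf3, at -0.50 (SE 0.14). Without those libraries 0 were higher (5.63% of all genes) and 3 lower (5.04%).

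Of 60 further interferon-stimulated genes 9 were higher (15%, against 5.12% of all genes) and 7 lower (11.7%, against 7.84%) at an unadjusted p under 0.05, with a median of -0.01. Without db/m 1 and db/m 3, 0 were higher (5.63% of all genes) and 5 lower (5.04% of all genes). The immunity-related GTPases Igtp and Tgtp1 had log2 fold changes of 1.36 (SE 0.44) and 1.72 (SE 0.60), the largest of the named members of that list. Igtp measured 20.3, 19.2, 20.02 and 31.5 CPM in db/m and 101, 81.8, 25.6 and 25.8 in db/db, so the high libraries were db/db 1 and 2, as for the guanylate-binding proteins. Ifi27l2a and the exonuclease Isg20 had log2 fold changes of -0.81 (SE 0.28) and -0.71 (SE 0.25).

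Of 24 further class I and immunoproteasome genes 6 were higher (25%, against 5.12% of all genes) and 2 lower (8.33%, against 7.84%) at an unadjusted p under 0.05, 17 were positive, and the median was 0.46. Without db/m 1 and db/m 3, 1 was higher (5.63% of all genes) and 1 lower (5.04% of all genes), 18 were positive, and the median was 0.31. H2-Q6, H2-Q4 and H2-T23, further class I heavy chain genes, had log2 fold changes of 0.94 (SE 0.28), 0.76 (SE 0.24) and 0.71 (SE 0.23), and as members of a family of close relatives their counts are uncertain. Calr, the chaperone calreticulin, stood at -0.39 (SE 0.14). Of 20 further class II genes 3 were higher and 3 lower (15% each, against 5.12% and 7.84%), with a median of -0.05. Without those libraries 1 was higher and 1 lower, where the shares of all genes were 5.63% and 5.04%. Of the 20, 2 were higher and 2 lower in db/db without overlap, against 5.04% and 4.61% of all genes. Rfxap, a subunit of the factor that binds class II promoters, had 13.9, 14.6, 10.7 and 13.3 CPM in db/m and 18.7, 18.02, 15.8 and 17.1 in db/db, without overlap, at 0.41 (SE 0.14). Cd80, a costimulatory ligand of antigen-presenting cells, had a log2 fold change of -0.86 (SE 0.31).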

How the data were processed

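RNA from 8 heart samples was measured by sequencing, and the genotype in each label gave the group. The authors deposited whole-number counts per gene, not normalised and not pooled, per the file headers and the values. The deposited table also gives a length per gene, another value that was used for levels per kb. Per the submitters' processing notes, the genome build was mm10. Not given in the sources used here are the aligner, the counter, its strand setting and the release of the annotation. Rows that name no gene numbered 0, and 179 of 55573 identifiers had no symbol.

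The count test was that of edgeR 4.0.16 (R 4.3.3): filterByExpr (minimum count 10, minimum total count 15) kept 17411 genes, TMM factors scaled the libraries, and the quasi-likelihood F test, two-sided with genotype as factor, had its p-values adjusted by Benjamini-Hochberg across those genes, with a threshold of 0.05. The alternatives were DESeq2 1.42.0, limma-voom (limma 3.58.1) with sample weights, RLE and upper quartile factors, other filters, a replicate block, each library left out, db/m 1 and db/m 3 left out, and, added after seeing the data, each library's trend on exon length removed. The fits were also run on simulated counts, in which no library stood apart in tissue markers or on exon length. That run therefore cannot show how the fits handle db/m 1 and db/m 3. Genes similar to a member were sought with BLAST 2.17.0, as matches of 95% identity or more that covered 20% or more of its longest transcript. Floors cover counting error only.

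The members, lists, motifs and alternatives were chosen with earlier results of these data known. Any member may be named, and of each other list up to 4 genes with the smallest p and a mean of at least 1 CPM, plus genes at or near 0 in all libraries. Some genes that this rule allows are not reported here.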

Additional observations from a re-analysis of the deposited data

Results flagged for a closer look

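In a group of 4 libraries, a library was singled out where its gap to the nearest other took most of the group's range (Dixon's 95% critical value). This was so in 13 of 176 groups of named genes and in 4 of 72 groups of members, and chance alone gives about 1 in 20. Among the members, Ifih1 was high in db/m 3, at 31.4 CPM against 20.4 to 22.1 in the other db/m libraries. Stat2 was high in db/m 4, at 31.1 CPM against 20.8 to 22.5. Ifit3 and Oasl2 were low in db/db 4, at 10.7 and 9.18 CPM against 19.7 to 21.3 and 17.3 to 18.5.

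In the further pathway lists, Traf6 was high in db/m 3 at 49.5 CPM and low in db/db 2 at 28.3, and Igtp and H2-Q6 were high in db/m 4 at 31.5 and 77.1 CPM. Among cell type markers, S100a8 was high in db/db 3 at 27.3 CPM, Tie1 in db/db 4 at 142, Msln and Upk3b in db/db 1 at 7.16 and 27.1, and Hba-a1 in db/m 2 at 801.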

How the results depend on the processing

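Against 1 gene called over all tested genes, DESeq2 called 377, limma-voom 130, no filter 27, both db/m 1 and db/m 3 left out 46, the length trend removed 12 and the replicate block 5. With 1 library left out the number was 0 to 106, the highest without db/m 3. The number of members called, 0, was 1 with DESeq2 and with limma-voom and 0 to 1 with 1 library left out, each time Oas2. Members with an unadjusted p under 0.05, 8 of 36, numbered 5 with limma-voom, 2 without both db/m libraries and 3 to 9 with 1 library left out, and 3 without db/m 1, 4 without db/db 1 and 4 without db/db 3. The share of all genes at that p was computed only with all libraries and without both db/m libraries.

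Of 611 log2 fold changes of single members under 17 alternatives, 562 kept their sign and side of the threshold, and 3 (Oas2) passed it. The other 46 changed sign, in 17 members that did not exceed 0.41 in size in the main fit. With limma-voom these were Irf7 -0.12, Mx1 -0.28, Ifi35 -0.18, H2-Aa -0.026, H2-Ab1 -0.059, H2-Eb1 -0.14 and Cd74 -0.11. Without both db/m libraries they were Irf7 -0.11, Mx1 -0.26, Ifi35 -0.24, Xaf1 1.5e-05, H2-Aa -0.027, H2-Ab1 -0.023, H2-Eb1 -0.14 and Cd74 -0.10. With the replicate block Mx1 was -0.0067 and H2-Ab1 -0.0040, with no filter Xaf1 was 0.0048, and with the length trend removed Ifi35 was -0.044 and Xaf1 0.020. With 1 library left out the range was -0.025 to 0.41 for Irf7, -0.18 to 0.068 for Irf9, -0.10 to 0.14 for Ifit2, -0.24 to 0.11 for Ifit3, -0.61 to 0.046 for Isg15, -0.41 to 0.12 for Usp18, -0.067 to 0.46 for Oas3, -0.11 to 0.40 for Mx1, -0.59 to 0.33 for Mx2, -0.26 to 0.17 for Bst2, -0.17 to 0.22 for Ifi35, -0.13 to 0.10 for Xaf1, -0.11 to 0.39 for H2-Ab1, -0.0023 to 0.41 for Cd74 and -0.92 to 0.0016 for Ciita. The causes were not tested.

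Replicate numbers appear in both genotypes, but deviations of same-numbered libraries correlated at only -0.09, 0.06, 0.03 and 0.02, so the numbers were not taken as pairs. The largest SEs of the members were those of Mx1, Ciita, Mx2, Isg15, Oas3 and Usp18, from 0.38 to 0.50. Mx1 had 4 to 22 counts a library and Oas3 10 to 45, so their differences were not detectable at this depth unless large.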

Other observations

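Markers of antigen-presenting and responding lymphoid cells were looked at after their values were seen, and the genes named here were chosen from those values. Cd209a, a lectin of monocyte-derived and conventional dendritic cells, had 29, 20, 41 and 13 counts in db/m 1 to 4 and 2, 6, 3 and 0 in db/db 1 to 4, without overlap, with a log2 fold change of -3.03 (SE 0.66, adjusted p 0.158 by edgeR). It is the extreme of its list, in which 3 of 6 tested markers were positive with a median of 0.09, and 4.61% of all tested genes were lower in db/db without overlap. The highest counts of Cd209a were in db/m 1 and db/m 3, the libraries with the atrial and adipocyte markers. DESeq2 called 1 of the 6 markers and limma-voom 0, against 2.17% and 0.747% of all genes. Without those libraries 1 marker was higher and 1 lower at an unadjusted edgeR p under 0.05 (5.63% and 5.04% of all genes). Clec9a, another dendritic cell marker, had 92 to 176 counts in db/m and 112 to 150 in db/db. All 4 tested B cell markers had negative log2 fold changes, from -1.26 to -0.55, and Cd79a, a subunit of the B cell receptor, had 20, 17, 12 and 18 counts in db/m against 7, 2, 7 and 9 in db/db. Cd8a, the coreceptor of T cells that recognise class I, had 4, 18, 16 and 18 counts in db/m and 21, 35, 50 and 22 in db/db, without overlap, with a log2 fold change of 1.28 (SE 0.48, adjusted p 0.338 by edgeR), where 5.04% of all tested genes were higher without overlap. Without db/m 1 and db/m 3 it was 0.84 with an edgeR p of 0.0994, and Cd4, the other T cell marker tested, stood at -0.11 (SE 0.38). These counts are small, and their relation to the class I and class II levels was not tested.

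H2-Ea-ps, the class II gene that the C57BL/6J reference annotates as a pseudogene, was counted in every library, at 32.8, 48.5, 17.8 and 51.1 CPM in db/m and 28.8, 42.0, 59.3 and 16.3 in db/db. As background, mice of haplotype H2-d make a functional class II alpha chain from this locus. Its lowest library was db/db 4, as for the 5 class II members.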
